A study of Mus musculus with 4 samples.

Results

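The genes considered here are 10 that neuroscientists use to describe somatostatin neurons, namely the neuropeptide genes *Sst*, *Npy*, *Cort*, *Tac1* and *Penk*, the calcium-binding protein genes *Calb1* and *Calb2*, and *Nos1*, *Chodl* and *Crhbp*, which mark subtypes of these cells. They were taken by name from a table of 56883 mouse genes, and all 10 were found in it. RNA was sequenced from tdTomato-positive cells sorted from the basal telencephalon at embryonic stage E14.5. Control embryos were *Sst-Cre/tdTomato* and knockout embryos were *Sst-Cre/tdTomato/Dnmt1 loxP2* (*Dnmt1* KO), with 2 libraries per genotype. Both genotypes carry Cre recombinase at the *Sst* locus and a Cre-dependent tdTomato reporter at *Rosa26*, so that the cells of every library were selected through *Sst* itself. Only the *Dnmt1* KO cells also carry loxP-flanked *Dnmt1*, which encodes a DNA methyltransferase and which Cre is meant to delete. The 2 samples of a genotype were processed separately, each from cells pooled over several embryos with the sexes not separated, so a library is a pool and not an animal. Which of the 10 genes were already read at this age, and which differed between the genotypes, were the questions asked of the table.

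The somatostatin neurons of the cerebral cortex are inhibitory interneurons that arise in the medial ganglionic eminence (MGE) and migrate through the basal telencephalon before they settle. Whether the sorted cells were all bound for the cortex was not tested. In the mature brain somatostatin neurons release GABA together with peptides, which are cut from longer precursors, stored in dense-core vesicles and bound by receptors coupled to G proteins. Their subtypes are told apart by what else they make. Calretinin, the product of *Calb2*, marks a group of Martinotti cells, and calbindin, the product of *Calb1*, is found in many somatostatin neurons. The rare cells that make *Chodl*, *Nos1*, *Npy* and *Tacr1* together are long-range projecting neurons.

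The promoter of *Sst* is a textbook example of a cAMP response element, the site bound by CREB, so the windows from 250 bases before to 50 bases after each RefSeq start site (GRCm38.p6) were searched for its letters, TGACGTCA, and for the shorter CGTCA that lies within it, on both strands. RefSeq windows were matched for 7 of the 10 genes, *Sst*, *Npy*, *Cort*, *Tac1*, *Nos1*, *Chodl* and *Crhbp*. The full site was found in *Sst* alone among them, with its first base 48 bases before the start, and is held by 1.79% of all 32851 windows. The shorter letters occurred in *Sst*, *Cort*, *Tac1*, *Nos1* and *Crhbp*, and in 20.8% of all windows. *Tac1* held 2 such sites, with first bases 197 and 43 bases before the start, and the stretch shown holds the farther. The site of *Nos1* began 130 bases before the start. Stretches of 30 bases are shown for the gene with the full site and for 2 genes with the short one that moved in opposite directions between the genotypes, *Tac1* and *Nos1*, with the searched letters in capitals.
Sst: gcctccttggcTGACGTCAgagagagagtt
Tac1: tccctaaaattgCGTCAtttcgaacacaat
Nos1: aaaccagccatgCGTCAggcttggcttcag
By exact match to GRCm39 these lie at chr16:23709624-23709653 on the minus strand (*Sst*), chr6:7554852-7554881 on the plus strand (*Tac1*) and chr5:118004762-118004791 on the plus strand (*Nos1*). Each stretch lies within the bounds that GENCODE gives its gene, although it precedes the RefSeq start. The windows held 13 CpG dinucleotides in *Sst*, 24 in *Npy*, 10 in *Cort*, 22 in *Tac1*, 6 in *Nos1*, 6 in *Chodl* and 9 in *Crhbp*, where the median window held 7.

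Values are normalised counts, that is, reads divided by a size factor of each library. The libraries held 8376711 and 7276779 reads on genes in the controls and 7744944 and 6970247 in the *Dnmt1* KO. The targeted gene *Dnmt1* had 2238 and 2341 normalised counts in the controls against 2164 and 2210 in the *Dnmt1* KO, a log2 fold change of -0.07 (SE 0.054; limma adjusted p = 0.461). A count of the whole gene cannot show whether the loxP-flanked exons were deleted, so the loss was not tested in these libraries. For cells sorted from the E14.5 cortex the paper reported lower *Dnmt1* transcript counts in the knockout. It also reported weaker staining of the protein in tdTomato-positive cells of E14.5 embryos. The 12 listed genes of MGE interneuron identity were all read, from 199 to 5309 normalised counts per library. Their sum was 18946 and 18601 in the controls and 27252 and 28358 in the *Dnmt1* KO. Being read does not settle the cell type, since marker genes of other cells were read too. The sum of 10 radial glia and cell cycle genes was 14283 and 14321 in the controls.

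Of the 10 genes 8, counted as detected at 10 or more reads in each of the 4 libraries, were already read at E14.5, namely *Sst*, *Npy*, *Tac1*, *Penk*, *Calb1*, *Calb2*, *Nos1* and *Chodl*. *Cort*, which encodes the somatostatin relative cortistatin, had 4, 6, 3 and 6 reads (control 1 and 2, then *Dnmt1* KO 1 and 2), and *Crhbp*, which encodes a protein that binds corticotropin-releasing hormone, had 9, 7, 7 and 9. Both are reported as trace levels. All 10 genes had at least 1 read in every library, and 4 of them (*Sst*, *Npy*, *Calb1* and *Nos1*) had 50 or more. As a reference for stray reads, 20 genes that belong to other organs, such as *Ins1* (insulin), *Alb* (albumin) and *Krt1* (a keratin of the skin), were counted in the same way. Of these, 10 had no read, and *Krt1* alone reached 10 reads in every library (24 to 37). The median of the 20 was 0.00822 RPKM (reads scaled to transcript length in kb and to the depth of the library), and that of *Krt1* was 1.53 RPKM, a level above *Penk*, *Nos1*, *Cort* and *Crhbp*. Whether the reads assigned to *Krt1* come from that gene was not tested, so its level is given as a value and sets no floor for the others.

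Levels of different genes were compared per transcript length. *Sst* stood first at a mean of 531 RPKM over the 4 libraries (range 432 to 631), at the percentile 99.6 of the 12278 protein-coding genes tested. *Npy*, the gene of neuropeptide Y, followed at 262 RPKM (197 to 337), and *Calb1* came after it at 28.2 RPKM (23.3 to 33.6). These 3 ranges did not overlap with that of the next gene. Below them the order was *Calb2* (5.26 RPKM), *Tac1* (3.64 RPKM), *Chodl* (1.56 RPKM), *Penk* (1.49 RPKM), *Nos1* (1.35 RPKM), *Cort* (0.882 RPKM) and *Crhbp* (0.479 RPKM), and from *Calb2* downward the range of each gene overlapped with that of the next. *Calb2* stood above *Tac1* in both control libraries and below it in both *Dnmt1* KO libraries. The levels depend on the transcript whose length is used. With the longest transcript *Sst* came to 253.5 RPKM and *Npy* to 97.0 RPKM, and with the median length *Tac1* came to 7.10 RPKM.

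**Figure D1:**
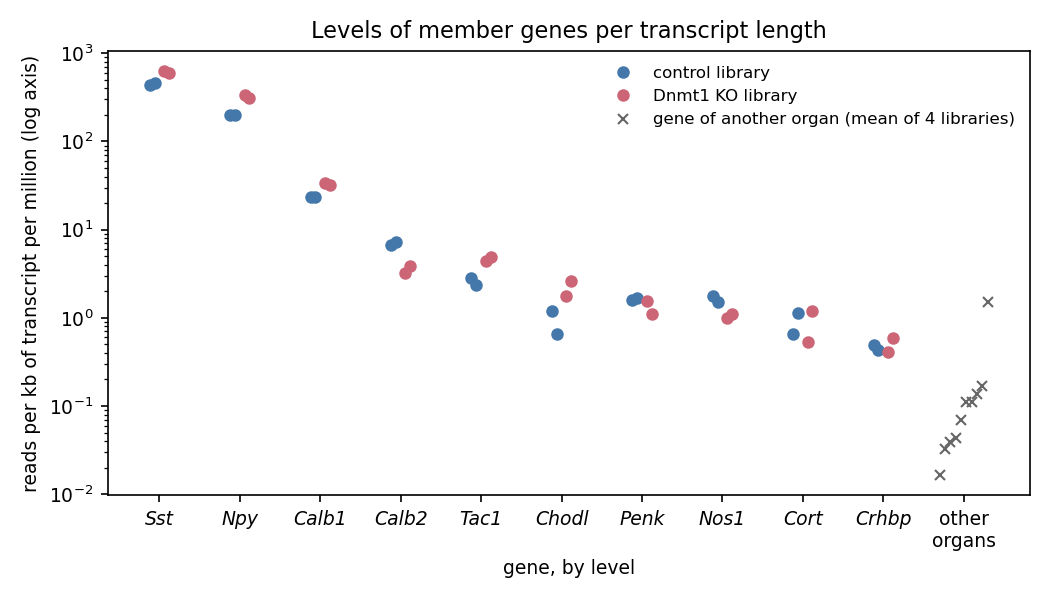
Level of each of the 10 genes in RPKM (log axis), one point per library, beside the 10 genes of other organs that had a read (crosses, mean of 4 libraries). *Sst*, *Npy* and *Calb1* stand apart at the top, while all points of *Cort* and *Crhbp* lie below the highest cross, *Krt1* at 1.53. Some points of *Chodl*, *Penk* and *Nos1* lie below it too.

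The 2 genotypes were compared with limma on log2(normalised count + 1), so fold changes of low genes are understated. Of the 8 genes with a mean normalised count of at least 10, 5 were higher in the *Dnmt1* KO (*Sst*, *Npy*, *Tac1*, *Calb1* and *Chodl*), 2 were lower (*Calb2* and *Nos1*) and 1 (*Penk*) did not pass an adjusted p of 0.05. Of all 14323 genes tested, 17.3% passed in either direction, 8.3% as higher and 8.99% as lower. The counts of the genotypes did not overlap for any of the 8 genes, as was the case for 57.4% of all genes tested. The RNA is that of whole sorted populations, in which fewer cells of a type and less RNA per cell cannot be told apart. With 2 libraries per genotype an exact two-sided permutation test of a single gene cannot go below p = 0.333, so the calls rest on the spread that limma shares across genes, and only *Sst*, *Npy* and *Calb1* were also called by the DESeq2 Wald test on the recovered reads, which called 10.5% of genes.

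**Figure D2:**
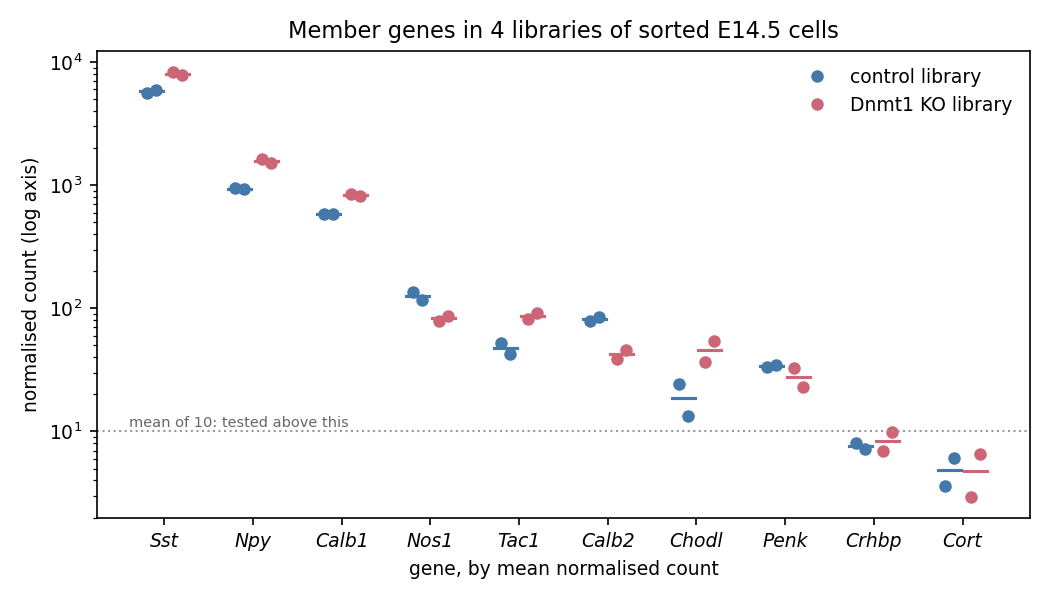
Normalised counts of the 10 genes (log axis) in the 2 control and 2 *Dnmt1* KO libraries, with a short line at the mean of each genotype and a dotted line at the mean of 10 needed for a test. *Sst* ranges from 5580 to 8303, and *Crhbp* and *Cort* lie below the dotted line.

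Among the peptides, *Sst* (chr16:23707321-23711733, minus strand, GRCm39) was at 5580 and 5963 normalised counts in the controls and at 8303 and 7825 in the *Dnmt1* KO. Both *Dnmt1* KO libraries were above both controls, and the mean rose from 5772 ± 271 to 8064 ± 338 (SD, n = 2), a log2 fold change of 0.48 (SE 0.047; 95% interval 0.38 to 0.58; limma adjusted p = 4.87e-06). *Sst* also carries the Cre that led to the selection of the cells, in both genotypes, and its transcripts with and without Cre were counted as 1 gene.

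*Npy* (chr6:49799026-49806489, plus strand), which many somatostatin cells make beside somatostatin, was at 947 and 929 in the controls and at 1632 and 1519 in the *Dnmt1* KO. Its mean rose from 938 ± 12.6 to 1576 ± 80.4 (SD, n = 2), a log2 fold change of 0.75 (SE 0.066; 95% interval 0.61 to 0.89; limma adjusted p = 1.98e-06). The gap between the genotypes was wider than the spread within either, and *Npy* was called without each library in turn.

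*Tac1* (chr6:7554120-7565834, plus strand), the precursor of substance P and neurokinin A, was far less abundant per length. It was at 51.9 and 42.9 in the controls and at 81.9 and 91.8 in the *Dnmt1* KO, and the mean rose from 47.4 ± 6.38 to 86.8 ± 7.01 (SD, n = 2), a log2 fold change of 0.86 (SE 0.22; 95% interval 0.39 to 1.34; limma adjusted p = 0.0141). The call was lost without control replicate 2 (adjusted p = 0.0870) or *Dnmt1* KO replicate 2 (adjusted p = 0.0666), and with DESeq2 (adjusted p = 0.101).

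*Penk* (chr4:4132722-4141856, minus strand), the precursor of the enkephalins, was at 33.1 and 34.7 in the controls and at 32.6 and 22.9 in the *Dnmt1* KO. One *Dnmt1* KO library was close to the controls and the other was lower. The log2 fold change was -0.30 (SE 0.32; 95% interval -0.99 to 0.39; limma adjusted p = 0.584), so a change of either sign within that interval was not excluded. An exon of *Penk* overlaps *A830012C17Rik* on the opposite strand, and counting by strand is not given in the sources used here, so the value is uncertain. *Penk* and *Tac1* are also made by striatal projection neurons, whose marker list is given below.

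*Cort* (chr4:149209491-149211266, minus strand) was below the minimum for a test, at 3.58 and 6.13 normalised counts in the controls and 2.96 and 6.56 in the *Dnmt1* KO, which overlap. From 10 control and 9 *Dnmt1* KO reads its ratio was 0.957 (95% exact counting interval 0.344 to 2.62), which spans changes in both directions. The interval covers counting error only.

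Of the calcium-binding proteins, *Calb1* (chr4:15881155-15908085, plus strand) was at 578.1 and 579.9 in the controls and at 849 and 813 in the *Dnmt1* KO. The mean rose from 579 ± 1.26 to 831 ± 25.7 (SD, n = 2), a log2 fold change of 0.52 (SE 0.077; 95% interval 0.36 to 0.68; limma adjusted p = 0.000233). It was called without each library in turn, and it fell to a log2 fold change of 0.31 after smooth trends with length and GC content were taken out of every library.

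*Calb2* (chr8:110864128-110894881, minus strand) moved the other way. It was at 78.7 and 84.7 in the controls and at 38.5 and 45.9 in the *Dnmt1* KO, and the mean fell from 81.7 ± 4.23 to 42.2 ± 5.25 (SD, n = 2), a log2 fold change of -0.94 (SE 0.23; 95% interval -1.43 to -0.45; limma adjusted p = 0.0102). The call was lost without control replicate 2 (adjusted p = 0.0789) and with DESeq2 (adjusted p = 0.0790). Calretinin is also made by Cajal-Retzius cells and by interneurons of the caudal ganglionic eminence. All 7 Cajal-Retzius genes on a marker list were read and tested, 4 were lower and 0 higher, and their sum was 590 and 730 in the controls and 262 and 299 in the *Dnmt1* KO. Of 6 caudal interneuron genes 5 were tested, 3 were lower and 1 higher, and the defining marker *Vip* had no read in any library. The higher gene was *Htr3a*, a serotonin receptor used to define these cells, at 9.84 and 14.3 against 26.6 and 31.7. Its log2 fold change was 1.22 (limma adjusted p = 0.0490, DESeq2 adjusted p = 0.241). The sum of the list was 1988 and 2106 against 1645 and 1610, most of it *Nr2f2* (1487 and 1571 against 1231 and 1208). The part of these cells in the value of *Calb2* was not tested.

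Among the subtype markers, *Nos1* (chr5:117918971-118096905, plus strand), the neuronal nitric oxide synthase, was at 135 and 116 in the controls and at 78.9 and 87.4 in the *Dnmt1* KO. The mean fell from 126 ± 13.3 to 83.2 ± 6.01 (SD, n = 2), a log2 fold change of -0.59 (SE 0.18; 95% interval -0.97 to -0.21; limma adjusted p = 0.0329). This call was lost in more settings than the other 6, among them without control replicate 1 (adjusted p = 0.198), control replicate 2 (adjusted p = 0.0576) or *Dnmt1* KO replicate 1 (adjusted p = 0.105), and with DESeq2 (adjusted p = 0.201). Exons of *Nos1* overlap *Gm30360* and *Gm26995* on the opposite strand, so its count is uncertain too.

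*Chodl* (chr16:78727732-78748624, plus strand), a membrane protein of the lectin type that defines the long-range subtype, was at 24.2 and 13.3 in the controls and at 36.5 and 54.6 in the *Dnmt1* KO. Its mean rose from 18.7 ± 7.70 to 45.6 ± 12.8 (SD, n = 2), a log2 fold change of 1.27 (SE 0.37; 95% interval 0.49 to 2.05; limma adjusted p = 0.0263). Relative to the mean its replicates differed more than those of the other 7 tested genes, and the call was lost without control replicate 2 (adjusted p = 0.175) or *Dnmt1* KO replicate 2 (adjusted p = 0.162), and with DESeq2 (adjusted p = 0.123). *Chodl*, *Npy* and *Nos1*, which the long-range cells make together in the adult, did not share a direction, since the first and second rose and *Nos1* fell.

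*Crhbp* (chr13:95567879-95581841, minus strand) was at 8.05 and 7.15 in the controls and 6.90 and 9.83 in the *Dnmt1* KO. The libraries overlap, and 16 reads in each genotype gave a ratio of 1.06 (95% exact counting interval 0.498 to 2.27) after scaling to the total reads on genes.

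**Figure D3:**
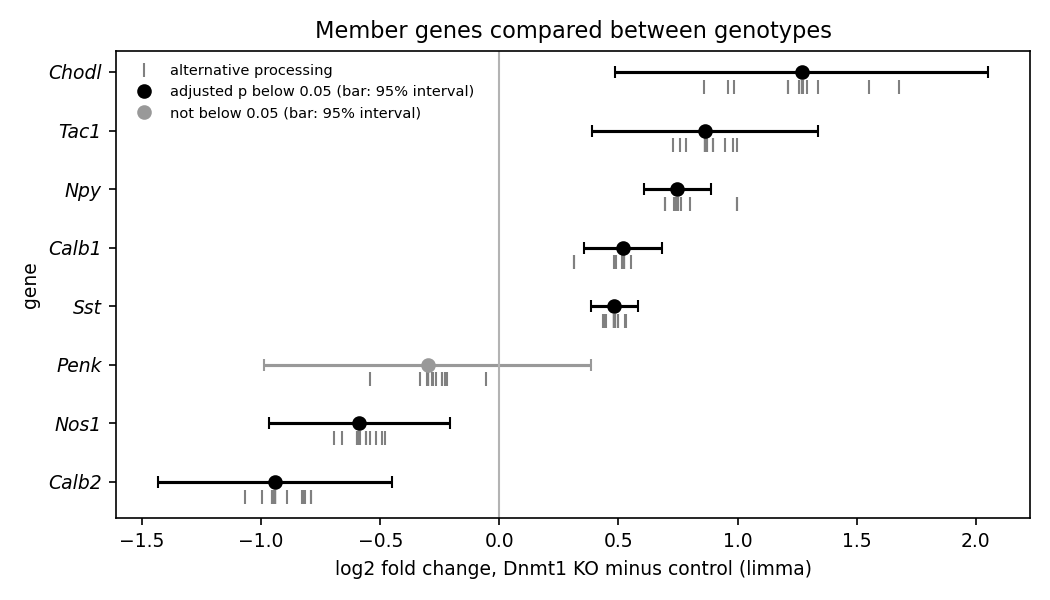
Log2 fold change of the 8 tested genes (*Dnmt1* KO minus control) with its 95% interval, black where the adjusted p was below 0.05, and grey ticks for the same gene under the alternative settings, including each library left out. To the right of 0 lie 5 genes and to the left 3, and the ticks of each gene stay on its side of 0, where *Penk* comes closest at -0.06.

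Since *Sst* and most of the 12 MGE identity genes rose as well, the genes were also set against *Sst* and against the sum of that list. Per 100 *Sst* reads, *Npy* had 17.0 and 15.6 reads in the controls and 19.7 and 19.4 in the *Dnmt1* KO, whereas *Calb1* had 10.4 and 9.72 against 10.2 and 10.4, which overlap. *Calb2* had 1.41 and 1.42 against 0.463 and 0.586. That separation was wider than in the normalised counts, as the rise of *Sst* lowers every ratio to it. The sum of the MGE identity genes rose by 0.57 on the log2 scale, and 10 of the 12 genes passed the test as higher and 0 as lower (83.3% called, against 17.3% of all genes tested). *Nkx2-1*, which defines the MGE, was not among the 10 (log2 fold change -0.03; limma adjusted p = 0.877). Per 1000 counts of that sum, a scale chosen after the values were seen, *Sst* was at 295 and 321 in the controls and 305 and 276 in the *Dnmt1* KO, and *Calb1* at 30.5 and 31.2 against 31.2 and 28.7. On this scale the genotypes overlapped for both genes and the log2 ratios turned to -0.08 for *Sst* and -0.05 for *Calb1*. *Npy* stayed higher in the *Dnmt1* KO, at 49.97 and 49.95 against 59.9 and 53.6 (log2 ratio 0.18), as did *Tac1*, at 2.74 and 2.31 against 3.00 and 3.24 (log2 ratio 0.31). *Chodl* was at 1.28 and 0.714 against 1.34 and 1.93 (log2 ratio 0.75). Because the sum rose by 0.57, this scale moves every gene down by about that much. On it *Calb2* and *Nos1* were lower by more, with log2 ratios of -1.53 and -1.16. *Penk* no longer had a library near the controls, at 1.75 and 1.87 against 1.19 and 0.809 (log2 ratio -0.88). Even *Crhbp*, with 16 reads in each genotype, no longer overlapped, at 0.425 and 0.384 against 0.253 and 0.347. The identity genes changed themselves, so neither scale is neutral, and no test was run on these ratios.

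**Figure D4:**
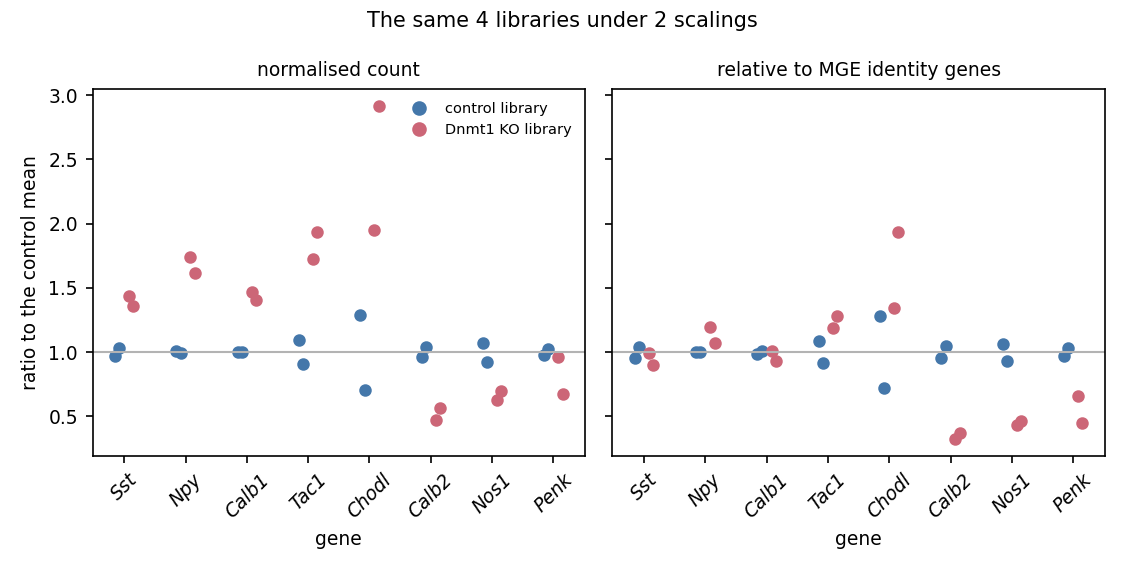
Each library's value divided by the control mean of the gene, for the normalised counts (left) and for counts relative to the summed MGE identity genes (right). *Sst* and *Calb1* lie above 1 in both *Dnmt1* KO libraries on the left and overlap with the controls on the right, while *Npy*, *Tac1* and *Chodl* stay above the controls and *Calb2*, *Nos1* and *Penk* below them. The summed identity genes rose in the *Dnmt1* KO, which moves every gene down on the right.

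The machinery that makes and releases peptides was read throughout, with 18 of 18 listed genes tested. Of these, 3 were higher, 1 was lower and 14 were not called, with a median log2 fold change of 0.14 against -0.0033 for all genes tested. The share called was 22.2%, against 17.3% of all genes tested. *Vgf*, a granin-like secreted protein, was at 48.3 and 60.2 in the controls and 92.7 and 99.4 in the *Dnmt1* KO (log2 fold change 0.82, SE 0.21; limma adjusted p = 0.0143). *Pam*, which amidates neuropeptide Y and substance P, rose less, from 663 ± 30.0 to 802 ± 10.3 (SD, n = 2; log2 fold change 0.27; limma adjusted p = 0.0220), as did *Cadps*, which primes dense-core vesicles, from 1300 ± 125 to 1529 ± 14.47 (SD, n = 2; log2 fold change 0.24; limma adjusted p = 0.0286). *Scg2*, the granin secretogranin II, fell from 267 ± 34.5 to 163 ± 0.665 (SD, n = 2; log2 fold change -0.70; limma adjusted p = 0.00176). The call of *Scg2* held without each library in turn. That of *Pam* was lost without control replicate 2 or either *Dnmt1* KO library (adjusted p from 0.0537 to 0.114), that of *Cadps* without either library numbered 2 (0.0658 and 0.237) and that of *Vgf* without control replicate 1 or *Dnmt1* KO replicate 2 (0.0885 and 0.0512).

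Receptors for the peptides were sparse, with 6 of 17 tested. *Npy2r*, a receptor of neuropeptide Y, was at 123 and 90.9 in the controls and 199 and 223 in the *Dnmt1* KO, a log2 fold change of 0.99 (SE 0.17; limma adjusted p = 0.000698), and was called without each library in turn and by DESeq2 (adjusted p = 0.00115). It was the only receptor called, as higher, and 0 were lower, a share of 16.7% against 17.3% of all genes tested. The somatostatin receptors *Sstr1*, at 63.5 and 61.3 against 72.0 and 99.4, and *Sstr2*, at 149 and 164 against 138 and 133, did not pass the test, and neither did the substance P receptor *Tacr1*, at 18.8 and 7.15 against 27.6 and 28.4 (limma adjusted p = 0.0893). Of 17 other neuropeptide genes 3 were tested and 1 was called (33.3%). *Cck*, the cholecystokinin gene, fell from 21.6 ± 2.68 to 6.40 ± 4.86 (SD, n = 2; log2 fold change -1.78, SE 0.56; limma adjusted p = 0.0408), a call that held only without *Dnmt1* KO replicate 2 and was lost without each other library (adjusted p from 0.102 to 0.203). *Vip*, *Ucn* and *Ucn3* had no read in any library, where a count of 0 allows up to 3 reads.

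Of 17 other calcium-binding proteins 13 were tested, with 1 higher, 1 lower and a median log2 fold change of -0.05. That is 15.4% called, against 17.3% of all genes tested. *Ncald*, neurocalcin delta, fell from 228 ± 12.5 to 124 ± 38.3 (SD, n = 2; log2 fold change -0.91, SE 0.18; limma adjusted p = 0.00255) and was called without each library in turn. *Ncs1*, neuronal calcium sensor 1, rose from 779 ± 19.9 to 926 ± 31.0 (SD, n = 2; log2 fold change 0.25; limma adjusted p = 0.0265), a call lost without control replicate 1 (adjusted p = 0.0981) or *Dnmt1* KO replicate 2 (adjusted p = 0.158). Parvalbumin (*Pvalb*), which marks the other large class of MGE interneurons in the adult, had no read in any library, nor did *Ocm* or *S100b*.

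A list of 14 other genes of somatostatin subtypes had 9 tested, of which 4 were higher and 1 lower (55.6% called, against 17.3% of all genes tested). *Grin3a*, an NMDA receptor subunit, was at 180 and 209 in the controls and 393 and 340 in the *Dnmt1* KO (log2 fold change 0.91, SE 0.12; limma adjusted p = 0.000114). *Elfn1*, which sits at synapses onto somatostatin cells, was at 430 and 439 against 766 and 831 (log2 fold change 0.88, SE 0.083; limma adjusted p = 4.19e-06). The transcription factor gene *Nr2f2* fell from 1529 ± 59.3 to 1219.7 ± 16.0 (SD, n = 2; log2 fold change -0.33; limma adjusted p = 0.00210). The calls of these 3 held without each library in turn. *Etv1*, another transcription factor, was at 179 and 185 against 237 and 235 (log2 fold change 0.37; limma adjusted p = 0.0498), and its call was lost whichever library was left out (adjusted p from 0.108 to 0.145). The Martinotti marker *Chrna2* and the markers *Hpse* and *Myh8* stayed at or below 3 normalised counts in every library, and *Crh* at or below 1.09.

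In the nitric oxide pathway 10 of 11 genes were tested, with 1 higher, 2 lower and a median log2 fold change of -0.09. The share called was 30%, against 17.3% of all genes tested. *Gucy1a1*, a subunit of the guanylate cyclase that nitric oxide activates, was at 239 and 209 in the controls and 393 and 367 in the *Dnmt1* KO (log2 fold change 0.76, SE 0.11; limma adjusted p = 0.000251), opposite in direction to *Nos1*, and was called without each library in turn. *Nos3*, the endothelial synthase, fell from 38.0 ± 3.21 to 13.8 ± 4.13 (SD, n = 2; log2 fold change -1.42, SE 0.37; limma adjusted p = 0.0153), and was called only without *Dnmt1* KO replicate 1, the other 3 giving adjusted p from 0.0515 to 0.0976. *Dynll1*, a dynein light chain that binds *Nos1* protein, fell from 1012 ± 78.5 to 863 ± 18.4 (SD, n = 2; log2 fold change -0.23; limma adjusted p = 0.0481), and was called only without control replicate 2, with adjusted p from 0.0705 to 0.283 otherwise.

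Markers of other cells of the dissected region moved with the genotype as well. Of the tested genes 45.5% (striatal projection) and 50% (cholinergic) were called, against 17.3% of all genes tested. Of 13 striatal projection neuron genes 11 were tested, 5 were lower and 0 higher, and their sum was 2132 and 2261 in the controls and 1547 and 1432 in the *Dnmt1* KO. *Isl1* had the largest change among those called (log2 fold change -0.84; limma adjusted p = 0.000639), and the defining *Drd1* and *Drd2* were low, *Drd1* at 13.4 and 15.3 against 5.92 and 3.28, and *Drd2* at 16.1 and 11.2 against 14.8 and 5.46. Of 6 cholinergic genes 4 were tested and 2 were lower (largest *Gbx2*, log2 fold change -0.96), with a sum of 956 and 1018 against 648 and 579, and *Chat*, the enzyme that defines these cells, at or below 1.97 in every library. The part of these cells in the values of *Tac1*, *Penk* and *Nos1* was not tested.

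The sums of the other lists were also lower in the *Dnmt1* KO. The shares of tested genes called were 80% (excitatory), 57.1% (Cajal-Retzius), 80% (caudal interneuron) and 90% (radial glia and cell cycle). They were 88.9% (vascular and microglial) and 100% (blood), against 17.3% of all genes tested. Of 10 excitatory lineage genes 8 were lower and 0 higher (sum 3034 and 3124 against 1756 and 1606; largest *Fezf2*, log2 fold change -1.32), and in the Cajal-Retzius list named above *Lhx5* changed most among those called (log2 fold change -1.77). Of 10 radial glia and cell cycle genes, which progenitors of GABAergic neurons also express, 8 were lower and 1, *Sox2*, was higher (log2 fold change 0.40; limma adjusted p = 0.00048) (sum 14283 and 14321 against 8930 and 9103; largest *Nes*, log2 fold change -1.03). Of 11 vascular and microglial genes 9 were tested and 8 were lower (685 and 701 against 277 and 310; largest *Cdh5*, log2 fold change -1.72), and of 10 blood genes all 8 tested were lower (2610 and 2433 against 587 and 592; largest *Hbb-y*, log2 fold change -3.44). Among the caudal interneuron genes *Cck* changed most, as given above. The lists share a few genes, namely *Isl1* (striatal and cholinergic), *Cck* and *Vip* (caudal and other peptides), *Nr2f2* (caudal and somatostatin subtypes), *Tacr1* (receptors and subtypes), *Necab1* (calcium-binding and subtypes), and *Pdyn* and *Crh* (other peptides and subtypes). The part of these lists in the values of the 10 genes was not tested.

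**Figure D5:**
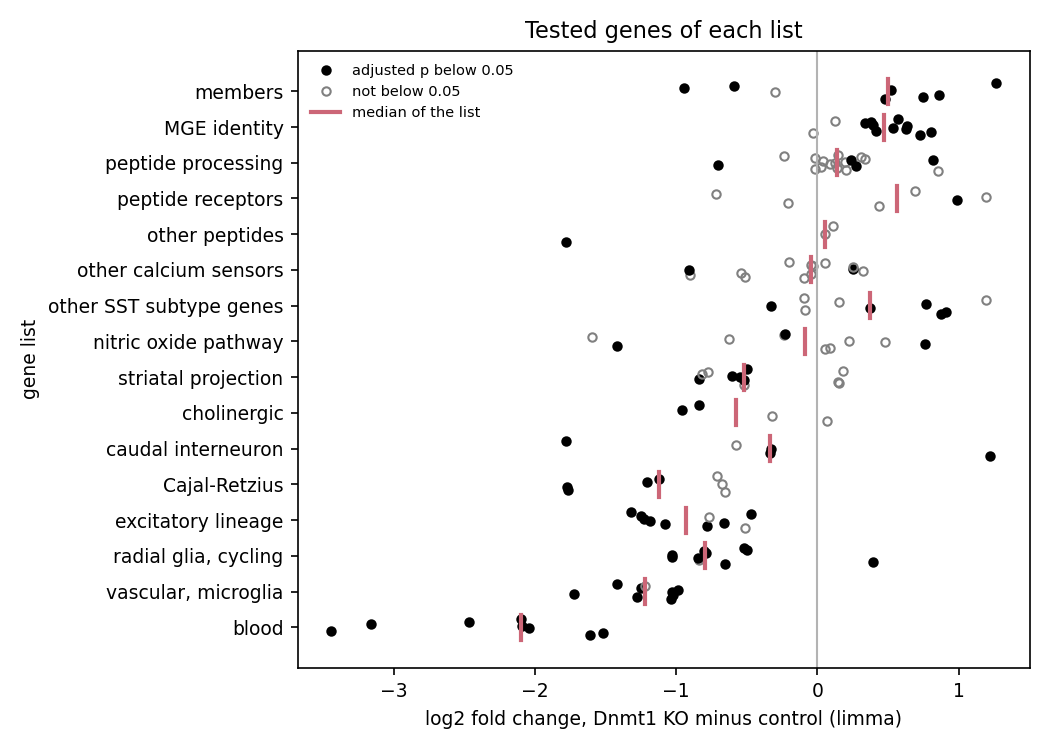
Log2 fold change (*Dnmt1* KO minus control) of every tested gene in each list, filled where the adjusted p was below 0.05, with a line at the median of the list. The 10 genes (members) have points on both sides of 0, the MGE identity list has a median of 0.47, and the medians of the lists of other cells run from -0.33 for the caudal interneuron genes to -2.10 for the blood genes.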

How the data were processed

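Total RNA of FAC-sorted cells was sequenced with a stranded kit after removal of ribosomal RNA. Per the labels and the study's methods, the authors used Trim Galore for trimming, STAR for alignment to GRCm39, Salmon for gene quantification and DESeq2 for normalisation. The deposited signal is a normalised count, a whole number divided by the size factor of the library. These whole numbers are called reads here, and the exact counting intervals treat them as observed counts. They come from the Salmon quantification, and how they were made whole is not given in the sources used here. When multiplied back, each of the 89965 values above 0 (100%) gave a whole number of reads within a tolerance of 0.0001. Size factors were 1.12 and 0.980 for the controls and 1.01 and 0.915 for the *Dnmt1* KO. All 4 columns of values were used.

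The limma package (version 3.58.1, R 4.3.3) was fitted to log2(normalised count + 1) by lmFit and eBayes with a trend, over genes whose mean normalised count reached 10, with genotype as the only term, and a gene was called at a Benjamini-Hochberg adjusted p below 0.05. The edgeR 4.0.16 quasi-likelihood test and the DESeq2 1.42.0 Wald test were run on the recovered reads, and edgeR called 2528 genes (17.6%). The study used DESeq2 on unnormalised counts, and limma was used here because the deposited values are normalised. RPKM used the GENCODE transcript with the longest coding sequence. Python 3.11.15, pandas 2.3.3, numpy 2.4.6, scipy 1.17.1 and matplotlib 3.10.9 were used, and the fits were tested on simulated data.

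The genes and lists were chosen with earlier results of these data known. Named are the 10 genes, *Dnmt1*, up to 4 called genes of each pathway list (the 2 highest and 2 lowest where more were called), and in each list of other cells the called gene with the largest change and defining markers at 0. *Krt1*, *Nkx2-1*, *Sox2*, *Htr3a*, *Sstr1*, *Sstr2*, *Tacr1*, *Drd1*, *Drd2*, *Chat*, *Chrna2*, *Hpse*, *Myh8*, *Necab1*, *Pdyn* and *Crh* were named after their values were seen. A called gene of the lists is not reported here. Groups and replicate numbers are those of the labels. Per the study's text, the samples of a genotype were processed separately, each from cells pooled over several embryos, so p-values measure the spread between pools. Whether pools shared embryos is not given in the sources used here. Each SD rests on 2 values. The alternatives were other pseudocounts, filters, normalisations and tests, removal of length and GC trends, a block for the replicate number, and leaving out each library, in which case the lone library is assumed to vary like the other genotype.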

Additional observations from a re-analysis of the deposited data

How the results depend on the processing

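Of the alternatives planned for the 10 genes, none turned the direction of a called gene. *Sst*, *Npy* and *Calb1* were called in 16 of 17 settings, *Calb2* in 14, *Tac1* in 13, *Chodl* in 11 of 16 and *Nos1* in 10 of 17, and edgeR called the same 7 genes as limma. Without the variance trend limma called 0 genes, 0 of the 10 and 0 of the pathway list genes (smallest adjusted p 0.0592, with 3339 genes at an unadjusted p below 0.05, among them the same 7 genes, where edgeR called 2528 and DESeq2 1327). DESeq2 called 1327 of 12656 genes against 2476 of 14323 with limma, 3 of the 10 genes against 7, and 8 pathway list genes against 16. Of these 16 it did not call *Cadps*, *Nos3*, *Vgf*, *Pam*, *Ncs1*, *Dynll1* and *Etv1* (DESeq2 adjusted p from 0.0805 to 0.279). It gave *Cck* no adjusted p. With each library left out the counts ran from 1716 to 2219 genes, from 3 to 6 of the 10 genes, the fewest without control replicate 2, and from 9 to 12 pathway list genes, the fewest without *Dnmt1* KO replicate 2. At a minimum of 50 reads in each library 4 of the 10 genes counted as detected, against 8 at 10 reads. Relative to the summed MGE identity genes, a scale added after the values were seen, the log2 ratio was -0.084 for *Sst* and -0.045 for *Calb1*, the reverse of the normalised counts, because that sum itself rose. The cause of the lost calls was not tested.

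Same-numbered libraries did not deviate together, with a correlation of -0.0847 between their deviations over 14323 genes. With only 2 pairs this cannot show whether they shared a batch, and the labels do not say what the numbers stand for. With the replicate number as a block 2957 genes were called, 7 of the 10 genes and 19 pathway list genes, and with length and GC trends removed as well 3111, 7 and 21. Depth limits *Cort* and *Crhbp*, with at most 9 reads in a library.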
